A study of Canis lupus familiaris with 4 samples.

Results

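The core genes of autophagy were followed in mesenchymal stromal cells (MSCs) grown from the adipose tissue of 4 dogs. The genes were chosen by symbol: every gene whose symbol starts with ATG and a number (18 genes) and 20 further genes of the pathway, 38 of the 30951 genes in the table. MAP1LC3A and MAP1LC3B, which the choice also named, are not among the gene symbols given and were not looked for under other gene IDs. The study has 1 group, untreated adipose MSCs, as 1 primary cell line and 1 library per dog. Cultures were kept in DMEM containing 10% fetal bovine serum, antibiotics and an antifungal and were harvested after 48 h in multiwell plates, and ribosomal RNA was depleted from 10 ng of total RNA for each library. All 4 libraries share these conditions, so no treatment was compared. The labels state no passage, breed or age.

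Macroautophagy encloses cytoplasm in a double membrane, the autophagosome, which fuses with the lysosome. A kinase complex starts the process, a lipid kinase marks the membrane with PI3P (phosphatidylinositol 3-phosphate), lipid carriers expand it, and ubiquitin-like conjugation attaches ATG8-family proteins (LC3 and GABARAP proteins) to it. Receptor proteins then link cargo to those ATG8 proteins. In stromal cells autophagy is known for its part in nutrient stress, organelle turnover and ageing of cultures. Its activity is set largely on proteins, and neither proteins nor autophagic flux were measured.

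Reads assigned to genes numbered 22411268, 16246965, 15203607 and 7474011 for dogs 1 to 4, so dog 4 was the shallowest, and genes with reads in at least 2 of the 4 libraries (detected genes) numbered 17200. Of 11 stromal markers measured, 10 were above the median detected gene, with NT5E (CD73) below, and 7 of 8 blood markers were not detected. PTPRC, the pan-leukocyte marker, had 5 reads in dog 3 alone. Of the endothelial markers 4 of 5 were detected, with 2 below and 2 neither, and they summed to 22.0, 8.37, 19.7 and 6.69 CPM (reads per 1e6 assigned reads) in dogs 1 to 4. Of the adipocyte markers 3 of 4 were detected, all below. PECAM1 (endothelial), CDH1 (epithelial) and CIDEC (adipocyte) had 0 reads in every dog. KRT18, a keratin of simple epithelia, had 9, 9, 25 and 435 reads in dogs 1 to 4, and the epithelial list summed to 0.446, 0.554, 1.64 and 58.2 CPM. In bulk RNA, fewer cells of a type and less RNA per cell cannot be told apart.

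Nearly all autophagy genes had reads in all 4 dogs, and their joint share of the assigned reads differed little between dogs. Together the 38 genes held 0.283%, 0.281%, 0.276% and 0.287% of the reads of dogs 1 to 4 (0.282% ± 0.00427, SD, n = 4). All 38 were detected and 37 had reads in every dog, the exception being ATG9B. Of all detected genes, 80.4% had reads in every dog. Of the 9960 detected genes within the members' range of levels (level is defined next, ATG9B aside), 99.97% did, so the members do not differ from these. A gene's level is its log2 value minus the median over detected genes of the same library, given as mean ± SD over 4 dogs. It was tested against a distance of 1 log2 unit in limma with Benjamini-Hochberg adjustment over all 17200 detected genes. Of the 38 members, 31 were above the median detected gene, 1 was below and 6 were neither. Over all detected genes 33.3% were above and 35.8% below, and among the detected genes with a symbol 41.4% were above and 23.7% below. These shares are also the background for the counts by role that follow. Of the 31, 30 had a level over 1 in each of the 4 dogs. The median level of the members was 2.29, against -0.02 for all detected genes and 0.79 for those with a symbol. When the level was set against the median of detected genes with a symbol instead, 22 members were above and 2 below, against 21.8% above and 43.4% below over all detected genes, the lost calls being AMBRA1, ATG12, ATG16L1, ATG2A, ATG4B, ATG4C, ATG7, PIK3C3 and TECPR1. Levels are not corrected for transcript length, for which no table was at hand, so they carry length as well as abundance and the order of genes is not read from them.

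**Figure D1:**
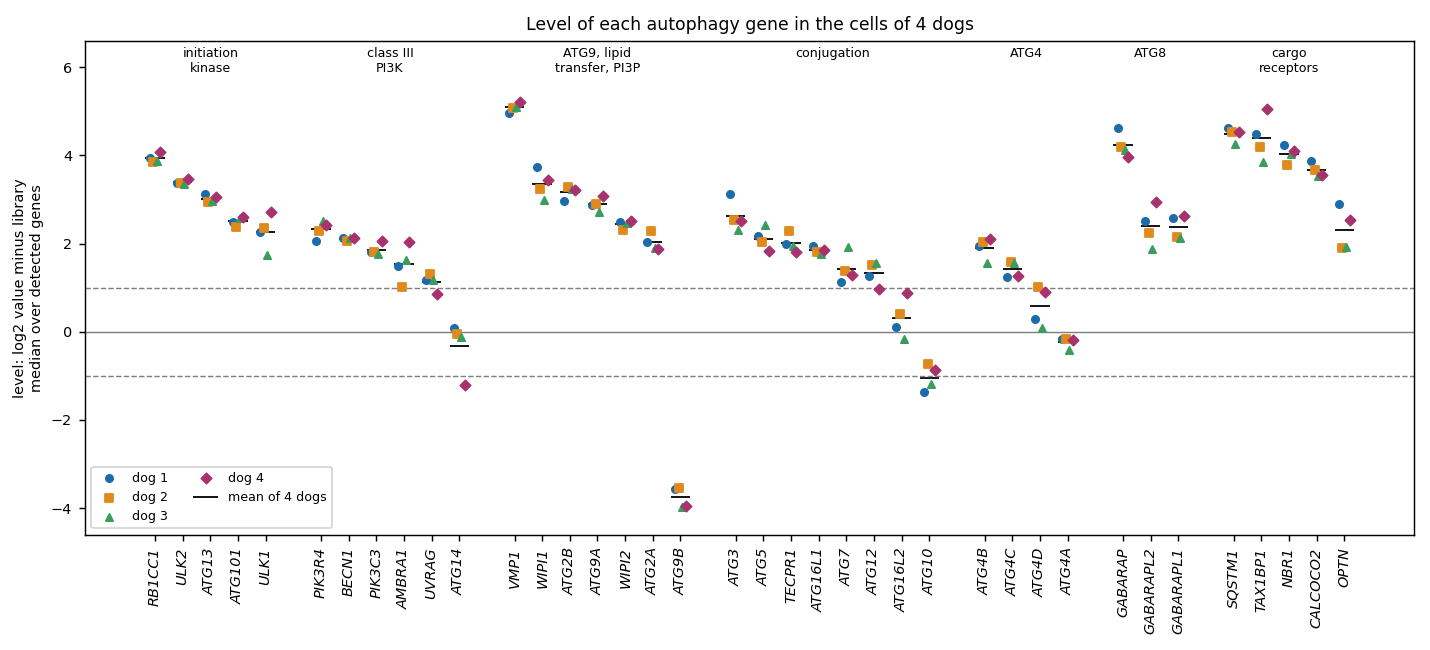
Level of each of the 38 autophagy genes (log2 value minus the library median over detected genes, y axis) in the 4 dogs, grouped by role along the x axis; bars mark the mean of 4 dogs and dashed lines the test distance of 1. The points of ULK2 and BECN1 lie on top of each other, those of ATG14 and TAX1BP1 spread, and ATG9B sits near -4.

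The genes of the initiation kinase complex were all above the median, 5 of 5, and 4 of them were nearly even between dogs. RB1CC1 (FIP200), the scaffold of the complex, had 2418, 2309.6, 2331 and 2646 normalized reads (reads divided by the library's size factor) in dogs 1 to 4. Its level was 3.93 ± 0.10 (limma, Benjamini-Hochberg adjusted p = 6.24e-09, n = 4). The kinase gene ULK2 had 1618, 1661, 1621 and 1728 normalized reads, a coefficient of variation of 3.1%. The bridging subunit ATG13 (level 3.02 ± 0.08) and its partner ATG101 (2.51 ± 0.10) ranged over 1.12-fold and 1.15-fold between the highest and lowest dog. The other kinase gene, ULK1, stood apart from this evenness, with 738, 808, 515 and 1015 normalized reads and a level of 2.26 ± 0.40. ULK1 was highest in dog 4 and lowest in dog 3, and its reads differed by 1.97-fold between these, or by 1.38-fold without dog 3.

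The class III PI3-kinase genes were above the median in 4 of 6 cases, and they held the members with the smallest and the largest SD between dogs. BECN1, the scaffold that joins the kinase to its regulators, had 677, 651, 682 and 668 normalized reads, with a level of 2.11 ± 0.03 (adjusted p = 5.26e-06, limma). All 4 values lay within each other's 95% counting intervals, and only 0.18% of detected genes had a smaller SD. The catalytic subunit PIK3C3 (VPS34) stood at 1.86 ± 0.14 and the regulatory subunit PIK3R4 (VPS15) at 2.32 ± 0.20. AMBRA1, which binds BECN1, stood at 1.54 ± 0.42 with 428, 305, 474 and 633 normalized reads. Dog 4 was highest and dog 2 lowest, 2.08-fold apart. UVRAG, which directs the kinase to endosomes, passed in neither direction at 1.13 ± 0.20.

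ATG14, which directs the kinase to the forming autophagosome, had 149, 135, 129.8 and 49.9 normalized reads. Dogs 1 to 3 lay close together and dog 4 was low. The counts behind this were 208, 146, 136 and 23 reads, and the exact 95% Poisson interval of dog 4, 31.6 to 74.8 normalized reads, ended under that of dog 3, 109 to 154 (counting error only). Its level was -0.32 ± 0.60, the largest SD of the members, and without dog 4 the SD was 0.11. Relative to genes of its level the SD of ATG14 was 1.40 times the prior, behind TAX1BP1 (2.01), OPTN (1.89), GABARAPL2 (1.72), ULK1 (1.55) and AMBRA1 (1.49). In the test of variability ATG14 did not pass (unadjusted p = 0.217, adjusted 0.983).

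Genes of membrane supply and PI3P reading were above the median in 6 of 7 cases. VMP1, an endoplasmic reticulum protein that moves lipids between membrane leaflets, had 4881, 5442, 5518 and 5897 normalized reads. It stood at 5.09 ± 0.11 and supplied 12.5% ± 1.29 of the reads of the 38 genes. ATG9A, the scramblase of the seed vesicles, stood at 2.90 ± 0.15. Its relative ATG9B had 1, 1, 0 and 0 reads and was below at -3.75 ± 0.23. At 0 reads, the 3-read limit allows ATG9B up to 0.197 CPM in dog 3 and 0.401 CPM in dog 4. The lipid-transfer proteins ATG2A and ATG2B stood at 2.03 ± 0.19 and 3.18 ± 0.14. Of the PI3P-binding proteins, WIPI2, which recruits ATG16L1, was even at 871, 771, 872 and 878 normalized reads, while WIPI1 had 2101, 1501, 1259 and 1694. WIPI1 was highest in dog 1 and lowest in dog 3, and its level was 3.35 ± 0.32.

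The conjugation genes were above the median in 6 of 8 cases, and several of those calls were close to the limit. ATG7, the activating enzyme of both conjugation reactions, stood at 1.43 ± 0.34 with 328, 397, 592 and 367 normalized reads, dog 3 lying above the other dogs. ATG3, the enzyme that transfers ATG8 proteins, stood at 2.63 ± 0.35 with 1371, 918, 784 and 889. Here dog 1 lay above the rest, and the SD without dog 1 was 0.12. ATG10, the enzyme that transfers ATG12, passed in neither direction at -1.04 ± 0.29, with 43.1, 77.5, 51.5 and 67.2 normalized reads, dog 1 being lowest.

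ATG12, ATG5 and ATG16L1 form the complex that sets where ATG8 proteins are attached. ATG5 stood at 2.11 ± 0.24, ATG12 at 1.33 ± 0.28 and ATG16L1 at 1.84 ± 0.08. ATG5 and ATG12 were both lowest in dog 4 and highest in dog 3, with 841 against 546 normalized reads for ATG5 and 457 against 288 for ATG12. ATG16L1 ranged over 1.13-fold. Its paralog ATG16L2 did not pass at 0.31 ± 0.44 and had 152, 193, 124 and 271 normalized reads, highest in dog 4. TECPR1, which binds ATG12-ATG5 at the lysosome, stood at 2.01 ± 0.20. ATG7 lost its call without dog 3 (1.26), and ATG12 without dog 1 (1.35), dog 2 (1.27) or dog 3 (1.25).

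The ATG4 proteases, which trim new ATG8 proteins and release them from membranes, were above the median in 2 of 4 cases. That share, 50%, is near the 41.4% of detected genes with a symbol that were above. ATG4B stood at 1.91 ± 0.25 with 588, 644, 452 and 664 normalized reads, lowest in dog 3. ATG4C stood at 1.41 ± 0.19 and lost its call without dog 2 (1.36). ATG4D had 175, 306, 152 and 278 normalized reads, with dogs 2 and 4 above dogs 1 and 3, and did not pass at 0.58 ± 0.45. ATG4A did not pass at -0.23 ± 0.13, with 123, 125, 101 and 119.

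The 3 ATG8-family genes measured were all above the median. GABARAP had 3886, 2919.6, 2769 and 2474 normalized reads, a level of 4.22 ± 0.28 (adjusted p = 1.17e-08, limma). It was highest in dog 1 and lowest in dog 4. GABARAPL1 (926, 699, 688 and 954, level 2.37 ± 0.26) and GABARAPL2 (882, 745, 577 and 1197, level 2.40 ± 0.44) had their highest values in dog 4 and their lowest in dog 3. The proportion of GABARAP to its relatives was lower in dog 4 than in dogs 1 to 3. Reads of GABARAP over those of GABARAPL2 came to 4.41, 3.92, 4.80 and 2.07 in dogs 1 to 4, and reads of GABARAP over GABARAPL1 to 4.20, 4.17, 4.02 and 2.59. In dog 4 both ratios were lowest, and without dog 4 they differed by 1.23-fold and 1.04-fold between dogs. Reads of GABARAPL2 over GABARAPL1 came to 0.953, 1.06, 0.838 and 1.25. These differences in ratio were not tested. GABARAPL2 overlaps the gene ADAT1 in the RefSeq annotation, so some of its reads could belong to that gene.

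The 5 cargo receptor genes were all above the median. SQSTM1 (p62), the receptor for ubiquitin-marked aggregates that is itself degraded by autophagy, had 3903, 3689, 3081 and 3663 normalized reads and a level of 4.49 ± 0.16 (adjusted p = 4.22e-09, limma). NBR1, its structural relative, stood at 4.03 ± 0.18 and CALCOCO2 (NDP52), a receptor for bacteria and mitochondria, at 3.66 ± 0.16. TAX1BP1 had 3519, 2932, 2319.7 and 5274 normalized reads, dog 4 lying above the others and dog 3 below. Its level was 4.40 ± 0.51, with 2.27-fold between dogs 4 and 3 and 1.52-fold without dog 4. OPTN (optineurin), a receptor of mitophagy, had 1157, 577, 589 and 898, with dogs 1 and 4 above dogs 2 and 3, and a level of 2.31 ± 0.49.

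**Figure D2:**
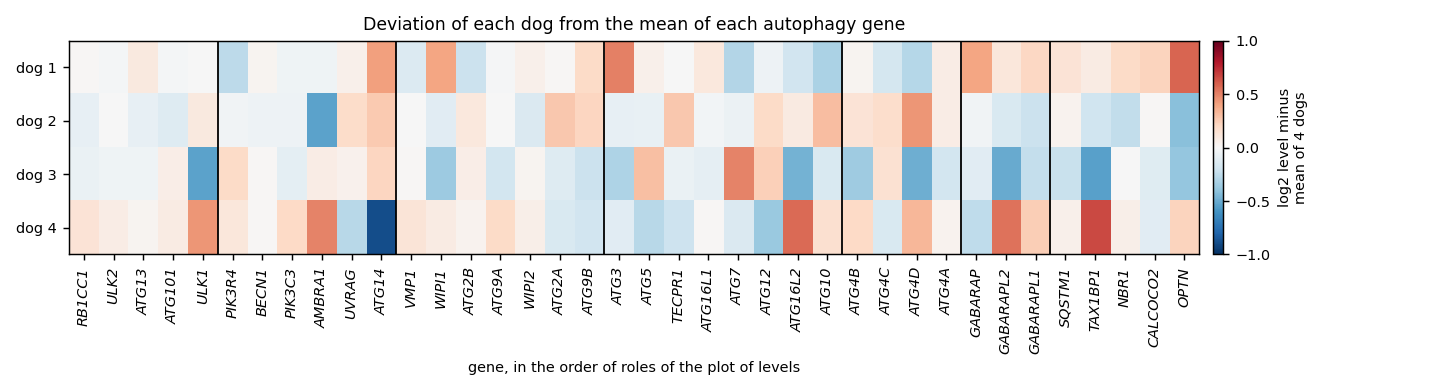
Level of each gene in each dog minus the mean of the 4 dogs (log2, colour scale from -1 to 1), with genes along the x axis in the order of roles and dogs along the y axis. The darkest blue is ATG14 in dog 4, and ULK1, GABARAPL2 and TAX1BP1 are red in dog 4 and blue in dog 3.

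Between dogs, most members differed by modest amounts. Leaving ATG9B aside, 22 of 37 members differed by under 1.5-fold between their highest and lowest dog and 7 by 2-fold or more. Those 7 were ATG14, TAX1BP1, ATG16L2, AMBRA1, GABARAPL2, ATG4D and OPTN. The shares of other genes at these folds were not computed. The median SD of the 38 members was 0.20, against 0.28 for the 9960 detected genes within the members' range of levels (-1.04 to 5.09, ATG9B aside) and 0.36 for all detected genes. The 9960 genes had a lower median level, 1.51 against 2.29 for the members. Divided by the prior SD that limma gives genes of the same level, the median SD was 0.74 in members and 0.91 in the 9960 genes. A log2 range over 1 was found for 15.8% of members and 21.6% of those 9960 genes. These figures describe the list and were not tested.

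The 95% counting intervals of the highest and lowest dog did not overlap for 32 of 38 members (84.2%), against 88.5% of the 9960 genes of the same range of levels and 72.9% of all detected genes. They overlapped for ATG16L1, ATG4A, ATG9B, BECN1, ULK2 and WIPI2. The SD between dogs was under the SD expected from the read numbers alone for BECN1 and ATG4A, 5.41% of the 37 members without ATG9B, and for 3.50% of the genes of that range. The median ratio of observed to expected SD was 3.59 in these members and 3.50 in those genes. The test of variability, an F test of each gene's variance over that of genes of the same level in limma, called 0 of 38 members after Benjamini-Hochberg adjustment, and 0% of all 17200 detected genes. At an unadjusted p under 0.05 it held 0 members and 5.2% of all genes. The smallest unadjusted p among members was 0.0663, for TAX1BP1 (adjusted 0.983), followed by OPTN at 0.0836.

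**Figure D3:**
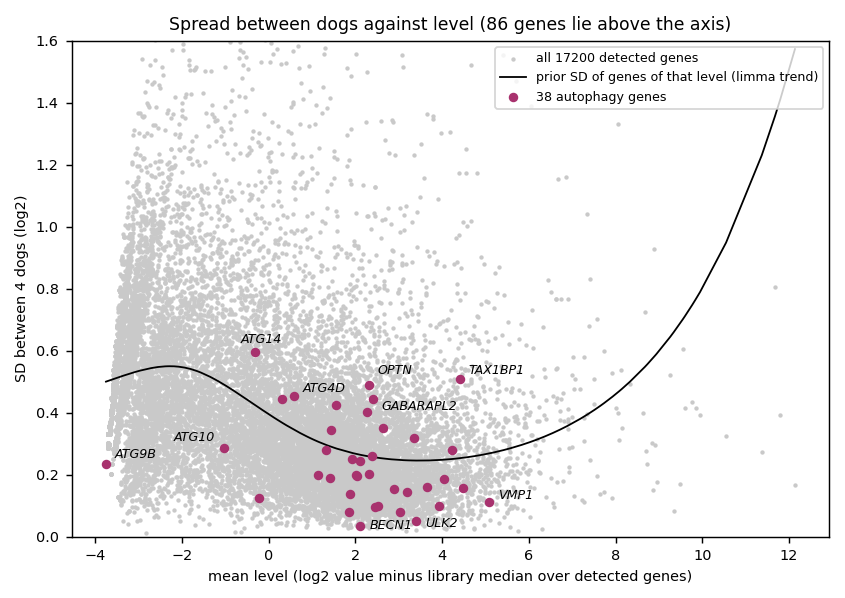
SD between the 4 dogs (log2, y axis) against mean level (log2, x axis) for all 17200 detected genes in grey and the 38 autophagy genes in colour, with the prior SD of limma as a line; 86 genes lie above the axis limit of 1.6. The autophagy genes lie on both sides of the line, 13 of 38 (34.2%) above it, against 44.0% of all detected genes, with ATG14 highest at 0.60 and BECN1 lowest at 0.03.

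Dog 3 was lowest for 17 of 38 members (44.7%), against 26.9% of the 9960 genes of the same range of levels and 31.1% of all detected genes. It was highest for 4 (10.5%), against 25.0% of the genes of that range and 23.4% of all detected genes. Dog 4 was highest for 14 members (36.8%), against 31.9% of the genes of that range and 36.8% of all detected genes. It was lowest for 7 (18.4%), against 34.9% of the genes of that range and 28.8% of all detected genes. The median difference of a member in dog 3 from the mean of the other dogs was -0.13, against -0.01 for the genes of the same range. For dog 4 these were 0.08 and -0.02. Only ATG14 in dog 4, at -1.18, lay over 1 log2 unit from the mean of the other dogs. In dog 4 this held for 9.19% of the genes of the same range. Dog 4 also had the lowest depth and the lowest sums of the stromal markers (73777 CPM against 103664 to 106203) and the endothelial markers (6.69 CPM). Its sum of the epithelial markers was the highest (58.2 CPM), with all 435 reads from KRT18. The sum of the adipocyte markers was also highest in dog 4 (5.75 CPM against 0.134 to 2.57), at 43 reads. The part of these differences in the values of dog 4 was not tested.

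Ratios of reads between paired members show which pairs kept their proportion, since transcript length cancels when the same ratio is compared between dogs. By reads, 3 of 12 pairs differed by over 2-fold between dogs: ATG14 over UVRAG (2.36-fold), GABARAP over GABARAPL2 (2.32-fold) and ATG16L1 over ATG16L2 (2.06-fold). Without dog 4 there were 0 such pairs, and without dog 3 there were 2, since ATG16L1 over ATG16L2 then differed by 1.89-fold. On the deposited log2 scale, which flattens low values, 1 of 13 pairs differed by over 1 unit, GABARAP over GABARAPL2. The reads of ATG4B over ATG4A kept the narrowest range, 4.47 to 5.56. ULK1 over ULK2 ranged from 0.32 in dog 3 to 0.59 in dog 4, SQSTM1 over NBR1 from 1.18 to 1.68, and ATG2A over ATG2B from 0.38 to 0.52. ATG16L1 over ATG16L2 was 3.88, 2.83, 4.22 and 2.05 in dogs 1 to 4. ATG14 over UVRAG was 0.44, 0.35, 0.38 and 0.19, lowest in dog 4. With 1 library per dog, the differences in ratio between dogs were not tested. No share over other gene pairs was computed for comparison, and some genes, such as GABARAP and ATG4B, enter more than 1 pair.

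**Figure D4:**
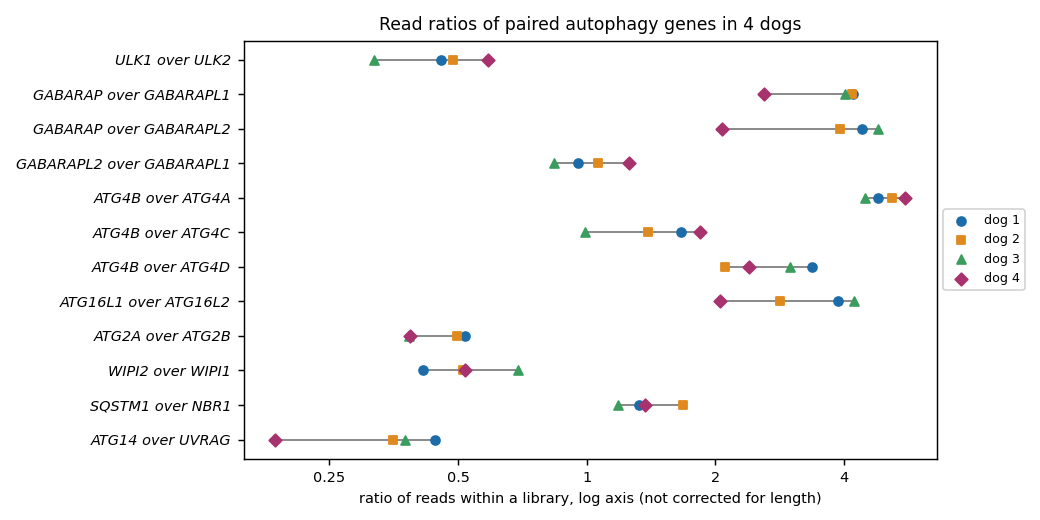
Ratio of the reads of 2 autophagy genes within each library (x axis, log scale, not corrected for length) for 12 pairs (y axis), with a symbol per dog and a line from the lowest to the highest dog; ATG9A over ATG9B is left out because ATG9B had 0 reads in 2 dogs. Dog 4 lies apart on the left for GABARAP over GABARAPL1, GABARAP over GABARAPL2 and ATG14 over UVRAG.

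Upstream of the machinery, genes of nutrient sensing by mTORC1 and AMPK were above the median in 16 of 30 cases and below in 3, a share of 53.3% above, where 41.4% of genes with a symbol were above and 23.7% below. MTOR, the kinase that restrains autophagy when nutrients are plentiful, stood at 4.25 ± 0.17 with 3358, 3214, 3022 and 2555 normalized reads, and its activator RHEB at 3.54 ± 0.20. DDIT4 (REDD1), a stress-induced inhibitor of mTORC1, had 4094, 3696, 3912 and 8878, with dog 4 far above the others (level 4.91 ± 0.60). RRAGB and the AMPK subunit PRKAA2 were below, at -2.40 ± 0.42 and -3.37 ± 0.46. Of the 9 detected transcription factors of the pathway, 4 were above and none below, a share of 44.4% near the 41.4% of all genes with a symbol. ATF4, which drives genes of the amino acid response, stood at 5.60 ± 0.09 and FOXO3 at 2.84 ± 0.47. TFEB, the regulator of lysosomal and autophagy genes, passed in neither direction at 0.36 ± 0.29, nor did FOXO1 at -0.29 ± 0.28, and TFEC had 0 reads in every dog.

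Of 16 further genes of autophagosome formation, 10 (62.5%) were above and 2 below, where 41.4% of detected genes with a symbol were above and 23.7% below. The sorting nexin SNX18 stood at 3.75 ± 0.12, and WDR45B and WDR45, the other relatives of WIPI1 and WIPI2, at 3.34 ± 0.08 and 3.08 ± 0.17. MAP1LC3C, an LC3 gene, was below at -3.14 ± 0.77 with 23, 0, 1 and 3 reads, as was RUBCNL with 2, 2, 1 and 6. Of 12 measured genes of fusion with the lysosome (15 were listed), 11 (91.7%) were above and none below. LAMP1 stood at 5.10 ± 0.26, LAMP2 at 4.42 ± 0.16, RAB7A at 4.08 ± 0.17 and the SNARE gene SNAP29 at 1.59 ± 0.11. STX17, the SNARE of the autophagosome, did not pass at 0.26 ± 0.24.

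Among 10 measured receptors of mitophagy and ER-phagy (14 were listed), 7 (70%) were above and 1 below. Of detected genes with a symbol, 41.4% were above and 23.7% below. RTN3 stood at 4.56 ± 0.30 and CCPG1, an ER-phagy receptor, at 2.92 ± 0.25. FUNDC1, a mitophagy receptor of the outer membrane, did not pass at -0.40 ± 0.33. BNIP3, a mitophagy receptor induced by hypoxia, had 3306, 912, 2002 and 5339 normalized reads, 5.86-fold between dogs 4 and 2, at a level of 3.91 ± 1.09. It did not pass the test of variability in limma (adjusted p = 0.276).

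**Figure D5:**
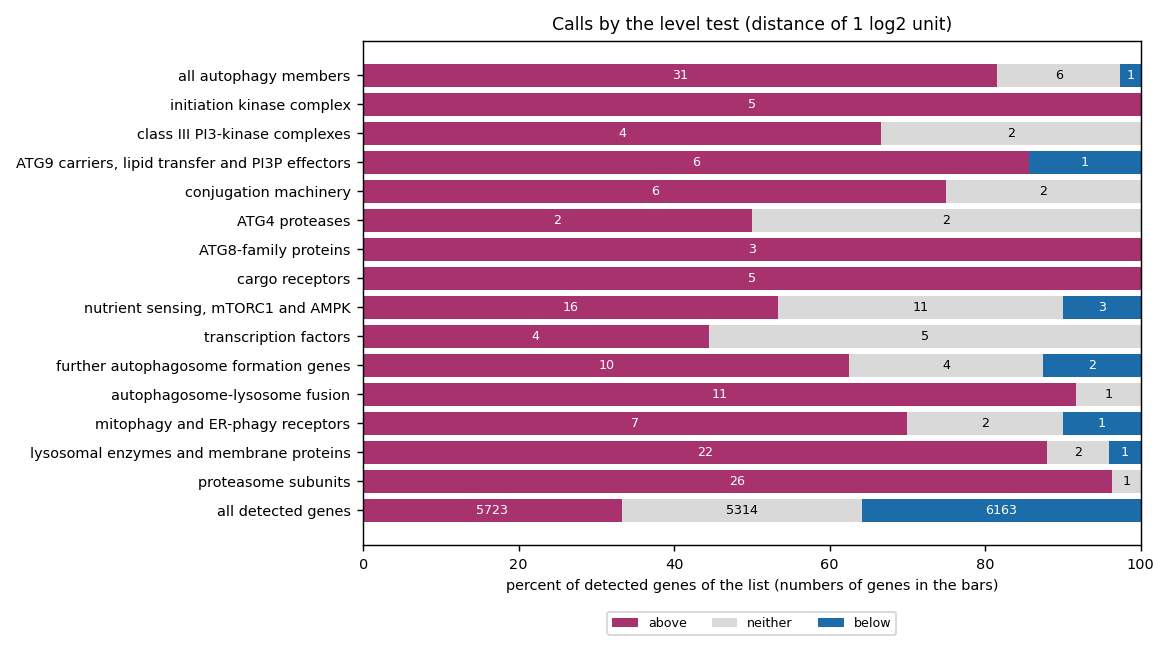
Share of the detected genes of each list (x axis, percent) that the level test called above the median detected gene, neither or below, with the numbers of genes in the bars. The autophagy members are above in 31 of 38 cases, against 5723 of 17200 among all detected genes.

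Lists of other degradation systems were summarised in the same way. Of 25 lysosomal genes measured (28 were listed), 22 (88%) were above and 1 below, with a median level of 3.07 and a median SD of 0.23. Of 27 proteasome subunits measured (31 were listed), 26 (96.3%) were above and none below, with 2.49 and 0.23. The autophagy members had 2.29 and 0.20. Of detected genes with a symbol, 41.4% were above and 23.7% below. LAMP1 and LAMP2 are in both the fusion and the lysosomal list. No difference between these lists was tested.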

How the data were processed

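The deposited table holds values on a log2 scale that the authors made with a variance-stabilizing transformation of counts, per the file headers and labels. FastQC 0.12.1, Trimmomatic 0.39, STAR 2.7.11a, DESeq2 and the build CanFam3.1 are named in the submitters' processing notes. How reads were counted, on which strand and with which annotation is not stated there, so overlapping genes cannot be told apart. In the RefSeq annotation of UU_Cfam_GSD_1.0, another build, 6 of the 37 members matched by symbol overlap a protein-coding gene: ATG4B, BECN1, TECPR1, ATG2B, ATG4D and GABARAPL2. VMP1 was not matched by symbol, so genes overlapping it were not checked.

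The transformation was inverted from its value at 0 reads, and 100% of the values of each library came out as whole reads (within 0.05). All tests used the deposited log2 values. Levels, detected genes and tests (limma 3.58.1, R 4.3.3, threshold 0.05) are described with the results, and the tests were checked on simulated data. For the test of variability the simulated spreads were larger than that of any member, so the check does not cover spreads like theirs. For the test of level, the simulated levels lay farther from the distance of 1 than those of ATG12, ATG4C, ATG7 and AMBRA1. Calls that close to the limit are not covered either. Precision is limited by 4 libraries of 7474011 to 22411268 reads. Intervals and the 3-read limit cover counting error only. The p-values rest on the spread between dogs, with 1 culture each. For the test of level, limma moderates that spread toward the prior SD of genes of the same level. For BECN1, with an SD of 0.03, that prior SD was 0.264, so its p-value rests largely on the prior. Figures were drawn with matplotlib 3.10.9 (numpy 2.4.6, pandas 2.3.3).

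All members are named, and of each pathway list the 3 highest and 2 lowest detected genes, genes with 0 reads and any past the variability test (none); 2 genes that this rule names are not reported here. Symbols with several rows used the row with the highest mean. Members and lists were chosen with earlier results of these data known. Alternatives covered the reference, distance, normalization, scale, filter, prior, depth and each dog left out.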

Additional observations from a re-analysis of the deposited data

Results flagged for a closer look

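For 6 of the 63 genes checked, 1 dog stood apart from the other 3, its gap to the nearest dog divided by the range of the 4 exceeding Dixon's 95% critical value. Chance flags about 1 in 20 such groups. Among the members, ATG14 was low in dog 4 (0.844), ATG4A low in dog 3 (0.855) and WIPI2 low in dog 2 (0.837). The share of members was 7.89%, against 5.36% of all detected genes. ATG4A and WIPI2 differed by only 1.23-fold and 1.14-fold between dogs, and their counting intervals overlapped. Among the other pathway genes, DDIT4 was high in dog 4 (0.867), RUBCNL was high in dog 4 (0.85) at 6 reads against 1 or 2, and LAMP2 was high in dog 1 (0.939) with 1.25-fold between dogs.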

How the results depend on the processing

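Of 531 values of single members under an alternative, 486 kept their direction and side of the threshold, 37 lost their call, 4 gained one and 4 changed sign. Those 4 were uncalled: ATG16L2 at -0.51 (reference of genes with reads in all 4 dogs) and -0.50 (reference of genes with a symbol), and ATG4D at -0.24 and -0.23 with these references. Of the members, 22 were above, 2 below and 14 neither with either reference (21.7% and 21.8% of all genes above). At a distance of 2, 18 were above and 19 neither (19.1% of all genes above), and at 0.5, 2 were below (40.6% of all genes below). With only genes with reads in all 4 dogs tested, which leaves out ATG9B, 0 were below. Leaving out each dog, with the set of detected genes held, gave 29 to 31 above, 1 below and 6 to 8 neither, and 0 to 1 pairs whose ratio differed by over 1 on the deposited log2 scale. Thinning all libraries to the shallowest gave 31 above. No member passed the variability test under its alternatives (smallest adjusted p 0.529 to 0.99), and the median SD was 0.194 to 0.235. Correction for length was not run, as the reference at hand gives genomic spans only, nor was the paralog test that needs it. No paired analysis was possible because the labels give 1 group. Dog 4, with 7474011 reads, limits the precision for ATG14, ATG10 and ATG9B.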

Other observations

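Other nutrient-sensing genes with large differences between dogs were picked after their values were seen. SESN2, a stress-induced activator of AMPK signalling, had 353, 977, 1031 and 419 normalized reads in dogs 1 to 4, with dogs 2 and 3 above dogs 1 and 4 (level 2.01 ± 0.77, n = 4). DEPTOR, an inhibitor of MTOR, had 540.2, 286, 224 and 158 normalized reads, 3.41-fold between dogs 1 and 4, and a level of 0.88 ± 0.70. Neither passed the test of variability in limma, and the smallest Benjamini-Hochberg adjusted p of the nutrient-sensing list was 0.631.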
